A study of Mus musculus with 28 samples.

Results

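The regions described are 861 of the 5446 positions at which the authors' consensus list places the histone variant H3.3 in mouse embryonic stem cells. They lie away from the ends of genes and outside the listed regions of histone H3 acetylated at lysine 27. They were chosen by the measured positions of both lists: a position on chromosomes 1 to 19, a width under 1500 bp, no base within 1 kb of either annotated end of any RefSeq gene, and no base shared with a region of H3 acetylated at lysine 27 (H3K27ac) in the second consensus list, which holds 57857 regions. Of the 5446 H3.3 regions, 5377 lay on these chromosomes, 4874 of them were under 1500 bp, 1755 of those were away from gene ends, and 861 of those shared no base with H3K27ac, which is 16.0% of the H3.3 regions on chromosomes 1 to 19. The study applied CUT&RUN, in which an antibody brings a nuclease to a chromatin mark and the released DNA is sequenced, to nuclei of ES-E14TG2a (E14), a line of male mouse embryonic stem cells. Its title names the H3.3 substitution K122A, and its 28 libraries cover H3.3, K27ac, K122ac and a control without antibody, with 7 libraries per target. For each target there were 2 wildtype libraries, 1 of H3f3a_AA_H3f3b_WTWT, 1 of H3f3a_WTWT_H3f3b_AA, 2 of H3f3a_AA_H3f3b_WTA, which are 2 clones, and 1 of H3f3a_WTA_H3f3b_AA, where H3f3a and H3f3b are the genes that encode H3.3. The lists give positions only, with no value per library, so that genotypes, depth and background could not be compared and no count below has a replicate behind it.

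H3.3 is the form of histone H3 that cells can place into chromatin outside DNA replication, through the HIRA complex at genes and regulatory elements and through DAXX and ATRX at repeats and telomeres. H3K27ac marks active promoters and enhancers. In embryonic stem cells many genes of later lineages are held silent by Polycomb complexes, which bind CpG-rich sequence, and their promoters are known to carry H3.3 as well.

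The name under which the regions were proposed, away from genes, held only in part: 650 of the 861 regions, 75.5% (exact 95% interval 72.5 to 78.3), had their centre inside an annotated gene, and 560 (65.0%) inside a protein-coding gene. They are therefore called H3.3 regions away from gene ends in what follows. A gene can also have start sites far from its outermost end, and 82 regions, 9.90% (7.95 to 12.1) of the 828 that were compared with listed starts, touched the 300-base window around such a start. The RefSeq promoter table gives these windows, from 250 bases before to 50 bases after a start, for 31365 starts of 25720 genes.

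Sequences are shown for 8 of these windows because listed promoter windows are the stretches of the regions whose bases were read here, and because these span what the regions touch: an isolated start in a long gene, internal starts of well known genes, and the window with the fewest CpG dinucleotides. They were chosen after their values were seen. Each is the RefSeq sequence of GRCm38.p6 (mm10 coordinates), 300 bases, 5′ to 3′ on the strand of its gene, and capitals mark the bases inside the H3.3 region. The windows are Tmeff2 at chr1:50927273-50927572 on the plus strand, Arntl at chr7:113207215-113207514 (plus), Dnmt1 at chr9:20952574-20952873 (minus), Bdnf at chr2:109694159-109694458 (plus), Cdkn2a at chr4:89282143-89282442 (minus), Hoxc4 at chr15:103034145-103034444 (plus), Sall2 at chr14:52316274-52316573 (minus) and the non-coding gene Gm33148 at chr7:142610909-142611208 (plus).
Tmeff2: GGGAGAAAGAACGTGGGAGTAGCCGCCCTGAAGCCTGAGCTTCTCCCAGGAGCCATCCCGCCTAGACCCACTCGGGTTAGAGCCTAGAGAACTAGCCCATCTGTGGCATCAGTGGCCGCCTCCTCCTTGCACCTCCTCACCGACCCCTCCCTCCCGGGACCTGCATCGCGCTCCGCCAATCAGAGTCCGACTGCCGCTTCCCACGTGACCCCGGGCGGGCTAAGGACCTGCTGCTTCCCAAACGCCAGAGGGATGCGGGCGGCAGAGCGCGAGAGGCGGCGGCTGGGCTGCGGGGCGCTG
Arntl: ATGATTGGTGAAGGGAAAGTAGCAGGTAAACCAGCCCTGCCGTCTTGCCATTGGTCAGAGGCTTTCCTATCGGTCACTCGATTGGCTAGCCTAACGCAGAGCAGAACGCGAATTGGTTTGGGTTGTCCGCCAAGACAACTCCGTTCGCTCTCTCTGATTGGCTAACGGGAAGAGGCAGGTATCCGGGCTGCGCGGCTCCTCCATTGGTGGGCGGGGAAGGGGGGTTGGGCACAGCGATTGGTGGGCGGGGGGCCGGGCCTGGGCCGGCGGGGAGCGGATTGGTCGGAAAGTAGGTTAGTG
Dnmt1: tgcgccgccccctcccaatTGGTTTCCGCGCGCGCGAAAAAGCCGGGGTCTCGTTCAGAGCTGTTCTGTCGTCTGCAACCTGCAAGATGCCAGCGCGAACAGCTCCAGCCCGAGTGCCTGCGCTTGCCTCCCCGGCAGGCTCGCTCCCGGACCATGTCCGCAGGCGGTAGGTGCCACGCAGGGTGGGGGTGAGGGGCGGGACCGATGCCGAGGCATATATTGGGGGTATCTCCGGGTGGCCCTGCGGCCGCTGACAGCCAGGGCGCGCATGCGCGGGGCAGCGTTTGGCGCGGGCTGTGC
Bdnf: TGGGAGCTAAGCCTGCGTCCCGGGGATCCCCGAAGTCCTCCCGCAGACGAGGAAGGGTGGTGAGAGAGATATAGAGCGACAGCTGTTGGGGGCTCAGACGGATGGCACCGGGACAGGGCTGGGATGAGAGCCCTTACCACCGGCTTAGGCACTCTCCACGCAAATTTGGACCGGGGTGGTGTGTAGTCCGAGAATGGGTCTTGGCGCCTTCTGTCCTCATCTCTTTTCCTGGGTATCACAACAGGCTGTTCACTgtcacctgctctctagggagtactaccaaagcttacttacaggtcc
Cdkn2a: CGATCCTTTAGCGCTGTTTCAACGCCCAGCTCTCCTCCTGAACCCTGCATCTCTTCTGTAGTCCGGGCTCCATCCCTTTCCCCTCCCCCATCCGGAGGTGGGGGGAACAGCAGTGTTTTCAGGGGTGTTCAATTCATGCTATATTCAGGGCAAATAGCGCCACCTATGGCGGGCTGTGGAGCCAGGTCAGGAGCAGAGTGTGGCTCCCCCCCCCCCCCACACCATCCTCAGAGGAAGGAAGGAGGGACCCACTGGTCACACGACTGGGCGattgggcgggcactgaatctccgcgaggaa
Hoxc4: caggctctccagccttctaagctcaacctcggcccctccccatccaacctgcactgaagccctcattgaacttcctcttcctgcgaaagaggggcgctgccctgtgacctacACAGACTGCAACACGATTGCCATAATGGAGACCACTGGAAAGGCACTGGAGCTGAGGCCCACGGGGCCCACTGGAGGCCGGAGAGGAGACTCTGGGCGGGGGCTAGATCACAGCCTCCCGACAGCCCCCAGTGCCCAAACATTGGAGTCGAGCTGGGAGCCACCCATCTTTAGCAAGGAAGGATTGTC
Sall2: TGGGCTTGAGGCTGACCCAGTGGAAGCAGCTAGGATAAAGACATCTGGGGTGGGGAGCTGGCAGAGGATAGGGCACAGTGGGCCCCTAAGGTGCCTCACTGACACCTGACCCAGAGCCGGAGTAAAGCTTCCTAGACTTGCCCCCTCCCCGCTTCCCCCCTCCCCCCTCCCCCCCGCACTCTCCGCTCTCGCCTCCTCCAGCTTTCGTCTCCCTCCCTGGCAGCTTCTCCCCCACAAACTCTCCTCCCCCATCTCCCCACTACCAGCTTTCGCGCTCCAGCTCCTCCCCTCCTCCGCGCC
Gm33148: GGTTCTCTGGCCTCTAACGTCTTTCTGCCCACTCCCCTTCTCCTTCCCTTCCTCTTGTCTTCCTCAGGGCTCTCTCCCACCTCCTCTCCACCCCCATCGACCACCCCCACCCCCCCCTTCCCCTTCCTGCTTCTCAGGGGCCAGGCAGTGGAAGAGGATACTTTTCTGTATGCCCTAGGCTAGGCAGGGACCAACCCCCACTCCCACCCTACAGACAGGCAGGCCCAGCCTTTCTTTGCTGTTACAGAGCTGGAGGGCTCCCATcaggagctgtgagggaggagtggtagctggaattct

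The Tmeff2 window, of a gene for a transmembrane protein, lay wholly inside a 398-bp region at chr1:50927209-50927606. It held 24 CpG dinucleotides, an observed to expected CpG ratio of 0.70 and 67.7% G and C, and the letters GGGCGG occurred 3 times when both strands were read. The nearest other H3.3 region was 2025490 bp away and the nearest H3K27ac region 288742 bp away. The Arntl window, at an internal start of the core clock gene that encodes BMAL1, lay wholly inside a region of 1166 bp and held 21 CpG with a ratio of 0.82. The Dnmt1 window, of the maintenance DNA methyltransferase, had the highest CpG count of the 8, at 33, with a ratio of 0.91. It shared 281 bases with a 479-bp region that ended 107 bp from an H3K27ac region, a narrow margin beside the 288742 bp at Tmeff2.

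The Bdnf window, at an internal start of the gene for brain-derived neurotrophic factor, shared 254 bases with a region of 1096 bp and held 13 CpG. A second region of 485 bp lay inside Bdnf, 988 bp from H3K27ac. The Cdkn2a window belongs to the tumour suppressor locus that encodes p16 and ARF, and it shared 270 bases with a 477-bp region 113402 bp from any H3K27ac. Hoxc4 and Sall2, both genes of transcription factors, had windows with 9 and 10 CpG and ratios of 0.33 and 0.36. The Gm33148 window held 2 CpG in 300 bases, a ratio of 0.0808, and shared 264 bases with a region of 332 bp. Gm33148 (chr7:142591659-142620811) lies between the imprinted genes H19 (chr7:142575530-142578146) and Igf2 (chr7:142650768-142666816). These 8 windows differed more than 10-fold in CpG ratio, from 0.0808 to 0.91, although all were overlapped by an H3.3 region without H3K27ac.

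Over all windows, those touched by the regions were rich in CpG. There were 91 such windows, of 81 genes, 77 of them protein-coding. Their median CpG ratio was 0.72 (interquartile range 0.58 to 0.82) and their median G and C content 65.0%, against 0.39 and 53.0% over all 31365 windows. A ratio of 0.6 or more was found in 65 of the 91, 71.4% (61.0 to 80.4), and in 26.0% (24.7 to 27.3) of the 4536 windows whose start is more than 1 kb from every gene end. The regions touched 2.01% of those 4536 starts, so that most starts of this kind had no such region. In the plot of CpG content, the windows of the regions lay close to those of gene-end H3.3 regions without H3K27ac (median ratio 0.76). They lay far from windows with neither mark, at 0.30. Windows of H3.3 regions away from gene ends that touch H3K27ac had a median of 0.73, and 68.8% reached 0.6. With H3K27ac and no H3.3 the median was 0.68, and 58.6% reached 0.6. High CpG content was thus not particular to the regions described.

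**Figure D1:**
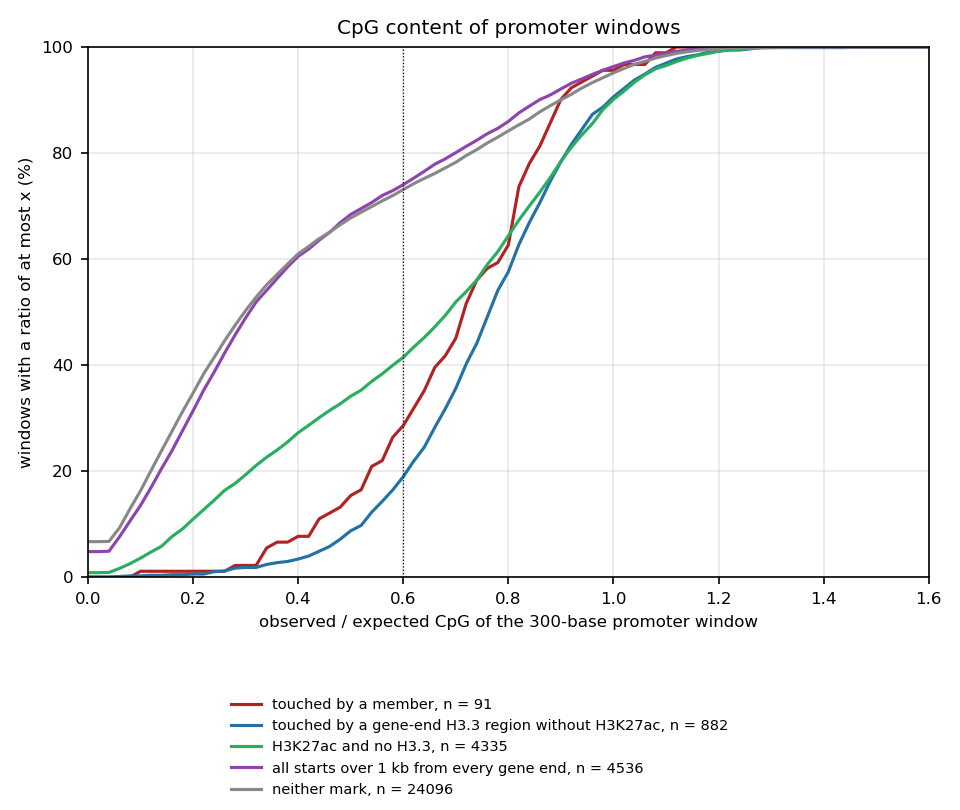
Cumulative share of 300-base promoter windows (y axis, percent) with an observed to expected CpG ratio of at most the value on the x axis, for windows touched by the H3.3 regions described here (members, 91 windows), by H3.3 regions at gene ends without H3K27ac, with H3K27ac and no H3.3, for all starts over 1 kb from every gene end, and for windows with neither mark. The dotted line is at 0.6, and 71.4% of the windows of members lie at or above it.

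The letters GGGCGG, the GC box bound by factors of the Sp family, read on both strands, occurred in 74.7% of the 91 windows and in 36.0% of all windows. The share was 73.7% in windows of H3.3 regions at gene ends without H3K27ac and 67.7% at gene ends with it. It was 62.5% in windows of H3.3 regions away from gene ends that touch H3K27ac. In windows with H3K27ac and no H3.3 it was 51.5%, and 29.3% in all starts over 1 kb from a gene end. The E-box letters CANNTG occurred in 61.5% of the 91 windows against 72.2% of all. The share was 56.25% in windows of H3.3 regions away from gene ends that touch H3K27ac. It was 59.9% at gene ends without H3K27ac and 57.5% at gene ends with it. The low share was thus not particular to the regions described. TTAGGG, the unit of the telomere repeat, occurred in 17 of the 91 windows, 18.7%, against 10.6% of all. In these H3.3 classes, in the same order, it occurred in 17 of 128, 107 of 882 and 189 of 1454 windows. The count is small and the difference was not tested. The letters CACACACA were found in 2.20% against 4.14%, and in 1.56%, 2.95% and 1.79% of these H3.3 classes in the same order. The palindromic E-box CACGTG, which is one form of CANNTG, was found in 11.0% against 7.14%. It was found in 10.2%, 8.62% and 8.25% of these H3.3 classes, and in 10.8% of windows with H3K27ac and no H3.3. The G and C content of the windows differed in the same direction as the GC box, and its part in these shares was not tested.

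The regions were short. Their median width was 370 bp (interquartile range 247 to 681, extremes 195 and 1492), 334 of them (38.8%) were under 300 bp, and together they covered 432 kb, 10.9% of the bases under H3.3 regions on chromosomes 1 to 19. Regions of the same width class elsewhere were of like width: the median was 384 bp for the 894 regions away from gene ends that touch H3K27ac, 392 bp for the 1501 at gene ends without H3K27ac, and 448 bp for the 1618 at gene ends with H3K27ac. The widest region, of 1492 bp at chr2:146217973-146219464, lay 2532 bp from Insm1, which encodes a zinc finger factor of neuroendocrine cells. Next came regions in Map3k6, a kinase gene (1479 bp), in Npr3, a natriuretic peptide receptor gene (1475 bp), near Osr2, a transcription factor gene (1463 bp), in Lmo1, a gene of a LIM domain factor (1459 bp), and in Tbx1, a T-box gene of the pharyngeal region (1444 bp). Regions of 1443 bp near C1ql4, 1436 bp beside Hoxd3, 1422 bp in Celf5 and 1411 bp near Foxl1 completed the 10 widest. Just outside the width limit were regions of 1500 bp near Pdgfa, 1507 bp near Lbx1 and 1519 bp in Tbx1.

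Away from gene ends, most regions were still not far from a gene. The median distance to the nearest gene end was 3319 bp (interquartile range 1734 to 8168), and it was 6271 bp for the regions that touch H3K27ac. The nearest to the limit were 1005 bp away in Loxl1, 1007 bp in St3gal6 and 1008 bp in Tll1. Those just excluded were 999 bp away at Mpp2, 999 bp at Tenm3 and 1000 bp at Foxa1. Inside genes, 62.0% (57.2 to 66.7) of the 424 regions whose coding host has a known strand were nearer its 5′ end, and 106 of them lay in its first 10%, which is 25% (20.9 to 29.4). Of the regions touching H3K27ac, 67.9% of 380 were nearer the 5′ end and 20.3% in the first 10%. The median length of the coding host was 32474 bp, against 51636 bp for the regions that touch H3K27ac. The share with a centre inside a gene, 75.5% here, was 60.5% for those regions. It was 71.0% at gene ends without H3K27ac, 69.2% at gene ends with it, and 77.9% for H3.3 regions of 1500 bp or more.

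The farthest from a gene end were scattered over long genes and gene deserts, and all but 1 of the 10 farthest were at most 404 bp wide. A region of 249 bp on chromosome 18 was 261016 bp from a gene end, in the desert whose nearest coding gene is Cdh2. A region of 195 bp in Fgf12, a fibroblast growth factor homologous gene, was 154385 bp from a gene end yet 525 bp from a listed start of Fgf12 itself. The 256-bp region in Rap1gap2, a GTPase activator gene, was 87462 bp from a gene end and 397 bp from a start of that gene. No listed start was so close to the regions in Gphn (94248 bp from a gene end), Rbfox3 (80152 bp), Dpp6 (75161 bp) or Cntnap5b (69634 bp), genes of synaptic or neuronal proteins. In Denn2b the region was 89072 bp from a gene end and wider, 922 bp, with another H3.3 region 2340 bp away. The remaining regions of the 10 farthest lay between genes, 109151 bp from a gene end on chromosome 3 and 72172 bp on chromosome 13 near Gadd45g, the latter 156 bp from H3K27ac.

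By distance from any listed start, the 828 regions off chromosome 18, where starts were not analysed here, fell into 3 groups. A first group of 155 (18.7%, interval 16.1 to 21.5) lay within 1 kb of a start, 45 of them on it. A second of 474 (57.2%) lay inside a gene and farther from a start, and the remaining 199 (24.0%) lay between genes. The median gap to the next H3.3 region was 33071 bp in the first group, 5591 bp in the second and 5040 bp in the third. An H3.3 region of 1500 bp or more was within 10 kb of 8.39%, 26.6% and 33.2% of them, in that order. Of the 357 regions that lay up to 5 kb from a start without covering it, 217 (60.8%, interval 55.5 to 65.9) were downstream of it. For H3.3 regions away from gene ends that touch H3K27ac, this count was 125 of 224, 55.8%. The share was 52.7% at gene ends without H3K27ac, 53.7% at gene ends with it and 54.1% for regions of 1500 bp or more. The interval of each of these shares overlaps that of the regions described. Of the regions touching H3K27ac away from gene ends, 145 of 868 (16.7%) lay within 1 kb of a start. These differences were not tested.

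The regions were more crowded with other H3.3 regions than the other regions under 1500 bp, and less than the 503 H3.3 regions of 1500 bp or more. The median gap to the nearest other H3.3 region was 7448 bp (interquartile range 1291 to 66816), against 38798 bp for regions away from gene ends that touch H3K27ac, 31142 bp at gene ends without H3K27ac and 48360 bp at gene ends with it. Another H3.3 region lay within 10 kb of 454 regions, 52.7% (49.3 to 56.1), and of 25.7%, 34.2% and 18.3% of the 3 other classes in the same order. An H3.3 region of 1500 bp or more was within 10 kb of 212, 24.6% (21.8 to 27.6), against 1.23%, 9.46% and 0.927%. Among the regions of 1500 bp or more the median gap was 1873 bp, 75.5% (71.5 to 79.2) had another H3.3 region within 10 kb, and 46.5% had another wide one. These 212 were nearest to 146 of the 503 wide H3.3 regions, whose median width was 2702.5 bp. Regions of a list are not replicates, so these shares are given with counting intervals and no test.

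**Figure D2:**
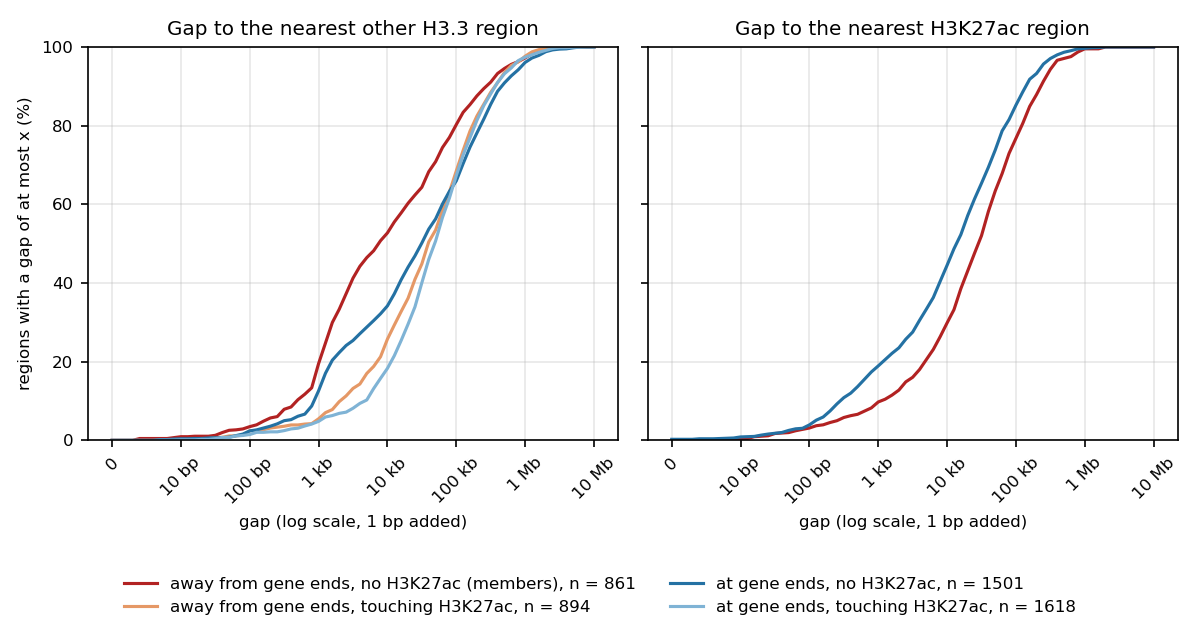
Cumulative share of H3.3 regions under 1500 bp (y axis, percent) whose gap to the nearest other H3.3 region (left) or to the nearest H3K27ac region (right) is at most the value on the x axis, in bp on a log scale. The regions described here (members, red) reach 52.7% at 10 kb in the left panel, above the 3 other classes, and 29.8% at 10 kb in the right panel, below the 44.5% of gene-end regions without H3K27ac.

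Of the 454 regions with a neighbour within 10 kb, the nearest neighbour was another of the 861 in 179, a gene-end region without H3K27ac in 127, and a wide region in 117. It was a region touching H3K27ac in 16 cases away from gene ends and in 15 at gene ends. Crowded regions were also wider: their median was 443.5 bp, and 72 (15.9%) reached 1000 bp. The 407 without a neighbour within 10 kb had a median of 306 bp, and 21 (5.16%) reached 1000 bp. The crowded regions were farther from H3K27ac, with a median gap to it of 44683 bp against 16596 bp. When H3.3 regions were joined at gaps up to 1 kb before the rule was applied, a setting chosen after seeing the data, 709 regions met it and the share with an H3.3 neighbour within 10 kb was 41.3%.

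**Figure D3:**
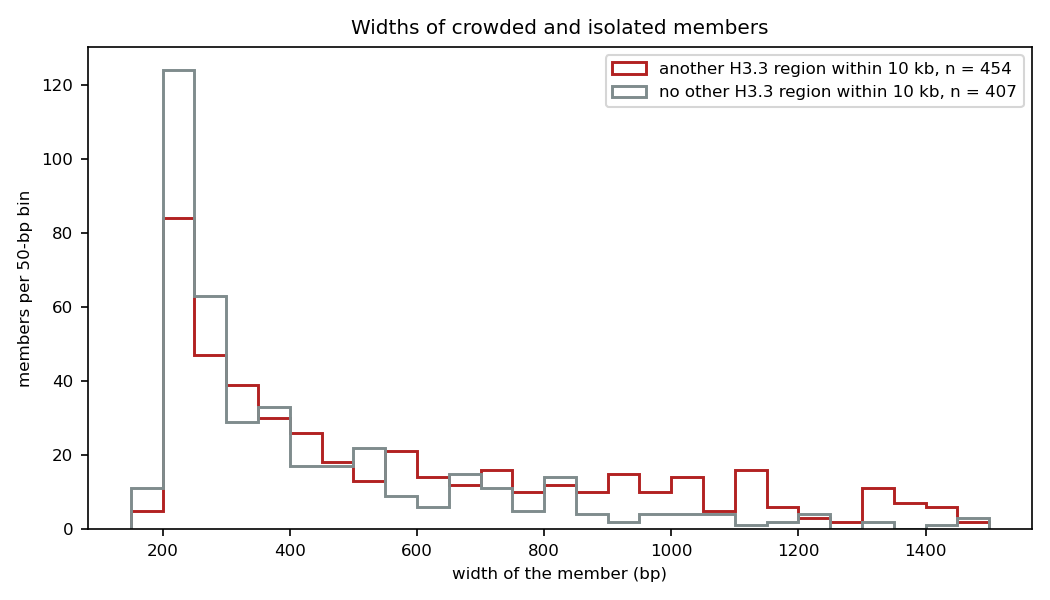
Histogram of the widths of the 861 regions in bins of 50 bp (x axis, bp; y axis, number of regions), for the 454 with another H3.3 region within 10 kb and the 407 without. From 1000 bp up there are 72 crowded regions and 21 without a neighbour, and the narrowest bins hold more of those without.

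Joined at gaps up to 10 kb, the H3.3 regions formed 705 clusters that hold at least 1 of the 861, and 407 of these were single regions. In 30 clusters there were 3 or more of the 861, 107 regions in all (12.4%). Of these 30 clusters, 28 held no H3K27ac region and 21 held an H3.3 region of 1500 bp or more. The rule excludes overlap with H3K27ac, so its absence from such clusters is partly built in. Of the 454 regions in clusters of 2 or more H3.3 regions, 378 were in clusters without H3K27ac. Of all 861, 217 (25.2%) were in clusters that held an H3.3 region of 1500 bp or more. The cluster with most, 11 of 15 H3.3 regions over 38.1 kb at chr9:3000039-3038162, lay at the first assembled bases of chromosome 9 and before its first listed gene. Its 11 regions were 291 to 1007 bp wide (median 477 bp) and 298299 to 334110 bp from H3K27ac, and no other chromosome had one of the 861 before 3.1 Mb. Without these 11 the median width was 368 bp and the share with an H3.3 neighbour within 10 kb was 52.1%. Mouse chromosomes begin with centromeric satellite repeats, and whether repeats or the mapping of their reads play a part at these positions was not tested. The lists hold no signal or control values, and whether any positions were excluded when they were made is not given. H3.3 at these 11 regions therefore cannot be told apart from a mapping artefact.

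The Hox genes, which set position along the body axis, gave the next largest cluster, with 6 of 18 H3.3 regions over 85.1 kb of the Hoxb complex. Over all 4 Hox complexes the regions numbered 16 of 80 H3.3 regions, from 222 to 1436 bp wide, and no H3K27ac region lay in any complex. Hoxb held 6 of 23, Hoxc 4 of 18 and Hoxd 6 of 21, while Hoxa held 0 of 18, where every H3.3 region met the gene-end window or the width limit. The 0 depends on the bounds used for Hoxa, chr6:52155367-52260880. Beyond them, 1 region of 283 bp lay in the non-coding gene Hottip (chr6:52262775-52267603). Hoxd3 and Sox1ot, a non-coding gene whose bounds enclose the neural gene Sox1, held 4 each, and Hoxb3 held 3.

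Tfap2b, an AP-2 transcription factor gene of neural crest and kidney, held 4 regions near its far end, of 856, 221, 292 and 620 bp, in order along chr1:19234048-19237162. The gaps between them were 35, 111 and 980 bp, and the nearest H3K27ac region was 964481 to 966976 bp away. Also among the 10 regions farthest from H3K27ac were a region of 266 bp whose nearest coding gene is Irx1 (871291 bp) and a region of 733 bp in Dach1 (869124 bp).

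Gata2, a blood and trophoblast regulator, had 4 regions of 410, 1229, 1029 and 708 bp, the first pair before the gene and the second inside it, on either side of an H3.3 region of 5100 bp. They were 35544 to 49696 bp from H3K27ac. Tfap2a, the other AP-2 gene among these clusters, had 4 regions of 1358, 366, 573 and 892 bp beside a region of 10288 bp, and its cluster held 1 H3K27ac region, 2439 bp from the nearest of the 4. Sim2, a regulator of midline and muscle genes, had 4 of 322, 223, 577 and 222 bp. Irx4, a heart ventricle regulator, held 3 regions of 207, 448 and 926 bp and no other H3.3 region. Clusters with 3 of the regions also lay, among others, at Onecut3, Mnx1, Nr2f1, Lbx1, Sp9, Prdm13, Tbx18, Sp8, Uncx, Ebf3, Def6 and Ajm1. These are named as examples, and their functions were not tallied.

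**Figure D4:**
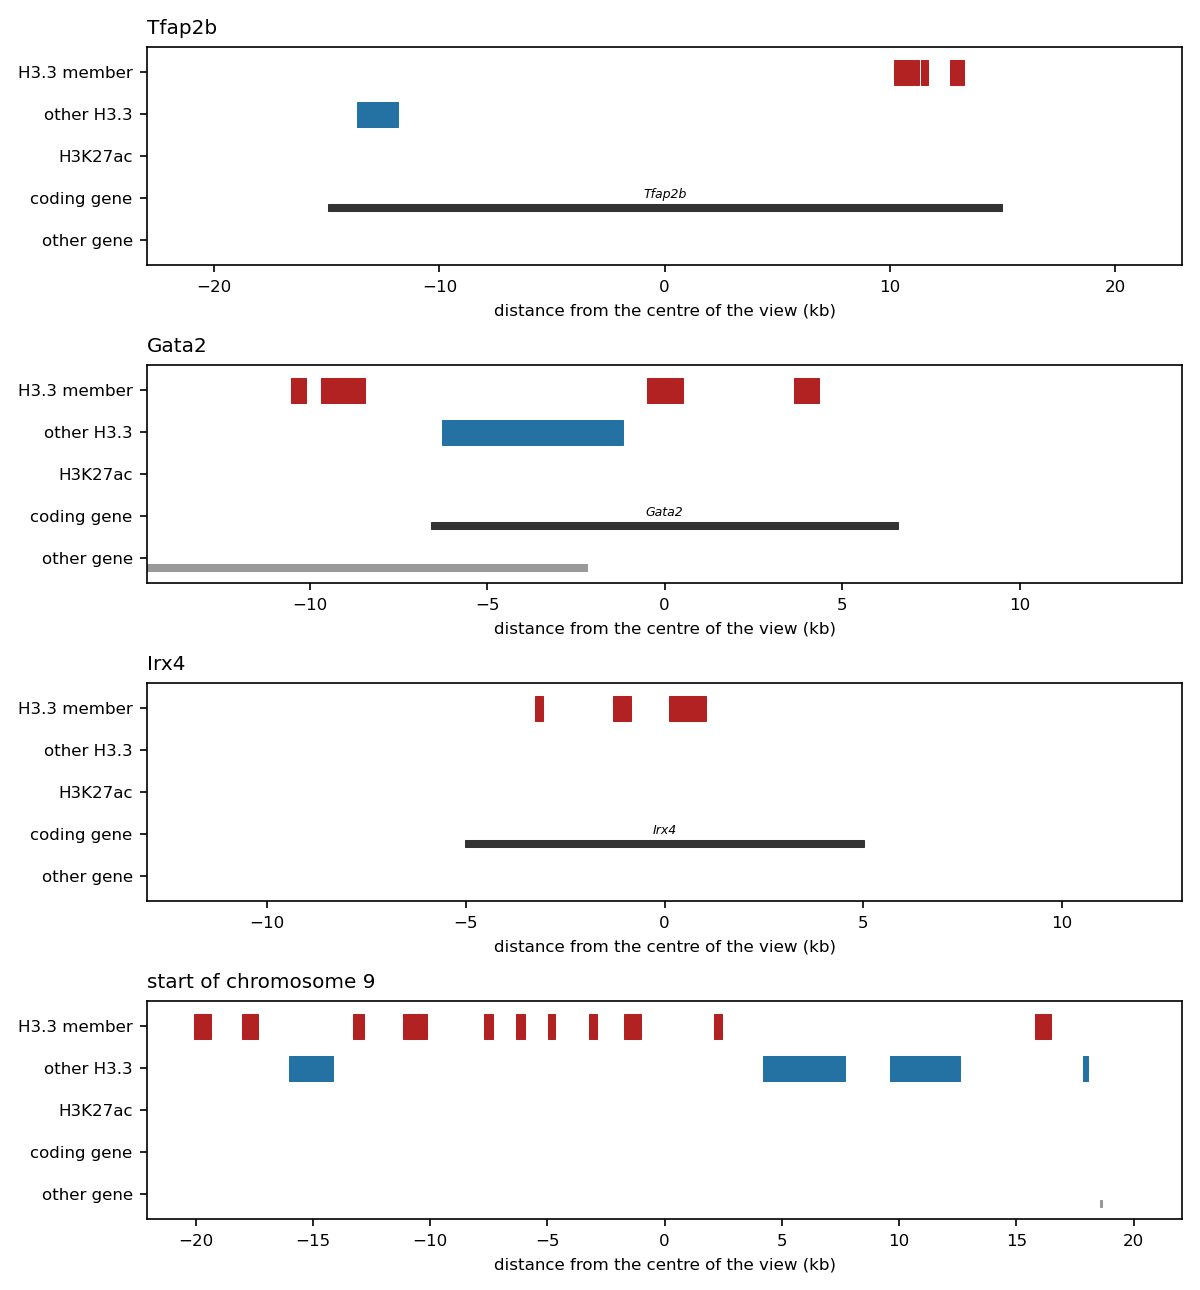
Maps of 4 clusters, with distance from the centre of each view in kb on the x axis and rows for the H3.3 regions described here (members), other H3.3 regions, H3K27ac regions, protein-coding genes and other genes. No H3K27ac region falls in any view; 4 members lie at each of Tfap2b and Gata2, 3 at Irx4 and 11 at the start of chromosome 9.

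Isolated regions were the other extreme. Of the 861, 44 had neither another H3.3 region nor an H3K27ac region within 100 kb. They were 195 to 1459 bp wide with a median of 273.5 bp. Of the 44, 30 lay inside genes, against 650 of all 861 (75.5%). Of the 39 off chromosome 18, 24 were within 5 kb of a listed start, against 402 of 828 (48.6%) over all. These differences were not tested, and the counts are small. In Dach1, a gene of a transcriptional cofactor of eye and limb, the region of 733 bp had its nearest H3.3 neighbour 2116384 bp away. The region of 245 bp in Stxbp6, a syntaxin binding protein gene, had it 4299850 bp away, the largest gap of the 861, and lay 445 bp from a listed start. Others lay near starts of Erbb4, a neuregulin receptor gene (392 bp wide, 1622 bp from the start), Gria2, a glutamate receptor gene (290 bp wide, 2073 bp), and Satb1, a chromatin organiser gene (332 bp wide, 413 bp).

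H3K27ac was absent from the regions by rule, and its distance varied widely. K122ac was not compared with the regions, so its presence there is unknown. The median gap to the nearest H3K27ac region was 28442 bp (interquartile range 7225 to 89028), against 13928 bp for gene-end regions without H3K27ac. H3K27ac lay within 1 kb of 84 regions (9.76%), within 10 kb of 257 (29.8%) and within 100 kb of 661 (76.8%). The shares were 18.9%, 44.5% and 85.2% for gene-end regions without H3K27ac. No H3K27ac lay within 50 kb of 315 regions, 36.6% (33.4 to 39.9), against 26.2% at gene ends. The median width was larger at larger gaps, from 285 bp for regions within 1 kb of H3K27ac to 452 bp for the 200 farther than 100 kb. Those closest to H3K27ac missed it by 3 bp in the non-coding gene Gm45609, 3 bp in Igf2bp3 and 8 bp in Hnf1aos1. Regions just excluded shared 1 bp with it in Cdc42ep4, 3 bp in Ptch1 and 16 bp in Klf13.

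Of the 20665 protein-coding genes on chromosomes 1 to 19, 495 (2.40%) held at least 1 of the regions. Of 53 lineage regulators 13 did, 24.5% (13.8 to 38.3). Among these 13 were Barhl2, Gata2, Gata3, Lhx1, Lhx2, Lmx1b, Nkx2-2, Pax3, Pax6, Sox1, Tbx5 and Tfap2a. The median gene length was 6.50 kb over the 53, 17.5 kb over all coding genes and 33.5 kb over the 495 that held a region. The part of gene length in these shares was not tested. Of the 53, 22 (41.5%) were the coding gene nearest to a region, against 3.26% of all coding genes. The 48 regions at these genes had a median width of 612.5 bp. The widest were 1396 bp in Tbx5, of heart and forelimb, 1358 bp near Tfap2a, 1229 bp near Gata2 and 1178 bp near En2, of the midbrain and hindbrain. The list was chosen with earlier results of these data known.

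Among the genes typed for pluripotency, Sall2 alone held a region. Of 26 genes of naive pluripotency, 0 held a region, for which the exact interval reaches 13.2%. The nearest coding gene of 5 regions was on this list: Sox2, with regions of 262 and 239 bp as the widest in the non-coding gene Sox2ot, and Tbx3, with regions of 396 and 362 bp. These lay near H3K27ac, 3634 and 837 bp from it at Sox2 and 503 and 185 bp at Tbx3. Of 16 genes of formative pluripotency, Sall2 held a region of 850 bp, 9961 bp from H3K27ac, and regions of 1037 and 629 bp were nearest to Otx2 and Foxd3. Of 13 genes of H3.3 and its chaperones, 0 held a region. Of 30 Polycomb subunit genes 2 held a region, 6.67% (0.818 to 22.1), and of 23 genes of extraembryonic lineages 1 did, 4.35% (0.110 to 21.9), both intervals that include the 2.40% of all coding genes. Bmi1, of the complex PRC1, held a region of 1187 bp 219001 bp from H3K27ac, and Jarid2, which works with PRC2, held a region of 465 bp that was 576 bp from it. Tfap2c, an AP-2 gene of trophoblast, held a region of 1233 bp.

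Of 47 imprinted genes, 3 held a region (6.38%, interval 1.34 to 17.5), an interval that includes the 2.40% of all coding genes. Peg3, a zinc finger gene expressed from the paternal copy, held a region of 1082 bp, 1785 bp from a gene end and 364331 bp from another H3.3 region. Kcnq1, a potassium channel gene, held a region of 836 bp that was 47457 bp from a gene end and 82295 bp from H3K27ac. Mest held a region of 691 bp, 1525 bp from H3K27ac, that ran into the windows of a pair of its internal starts. A region of 691 bp lay outside any gene, 6344 bp from a gene end, with Trappc9 as its nearest coding gene. A 199-bp region touched a window of Gm34081, a non-coding gene (chr12:109493125-109540149) that lies between Dlk1 and Meg3, 2550 bp from H3K27ac.

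Larger families and long genes were counted in the same way. Of 458 zinc finger genes, 15 held a region (3.28%, interval 1.84 to 5.34), an interval that includes the 2.40% of all coding genes, with 1105 bp in Zfp703 as the widest. Of 52 synaptic adhesion and ion channel genes, whose median length was 1068 kb, 3 held a region, 5.77% (1.21 to 15.9), again with 2.40% inside the interval. They were Dpp6, Erbb4 and Ptprn2, with regions of 289, 392 and 293 bp. No region lay in any of 1104 olfactory receptor genes (interval up to 0.334%), 354 vomeronasal genes or 183 keratin and defensin genes, which have median lengths of 0.95, 0.962 and 1.87 kb, and a gene under 2 kb cannot hold a base more than 1 kb from both its ends. Of 67 protocadherin genes 21 were counted as holding a region, but there were 5 regions among them, because many nested gene models of the gamma cluster on chromosome 18 span the same bases.

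The share of H3.3 regions that met the rule was 16.0% over the 19 chromosomes. The highest share was 21.6% (17.9 to 25.5) on chromosome 2, with 102 of 473, and the lowest 9.65% (6.15 to 14.2) on chromosome 3, with 22 of 228. These are the extremes, picked after the values were seen, and the intervals count clustered regions as independent, so they do not show that chromosomes differ. Per megabase, counted up to the end of the last listed gene, the density ran from 0.138 on chromosome 3 to 0.701 on chromosome 19. The density of all H3.3 regions differed in the same direction, with 228 over 159.9 Mb on chromosome 3 and 227 over 61.3 Mb on chromosome 19.

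**Figure D5:**
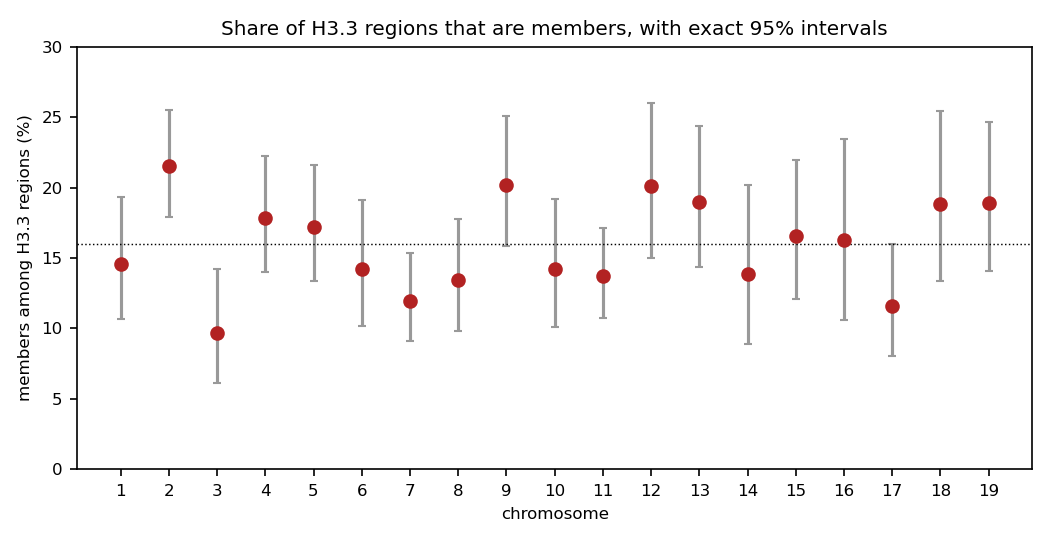
Share of the H3.3 regions of each chromosome (x axis) that met the rule (y axis, percent), with exact 95% intervals as bars and the share over all 19 chromosomes, 16.0%, as a dotted line. Chromosome 2 is highest at 21.6% and chromosome 3 lowest at 9.65%.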

How the data were processed

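CUT&RUN libraries of E14 cells for H3.3, K27ac, K122ac and a control without antibody were grouped by target and genotype from their labels, and the files used are 2 consensus lists of the whole series. As deposited, each list gives positions alone, a chromosome with the first and last base of every region, so no signal, depth or p-value entered. The lists hold 0 columns of other samples. The submitters' processing notes name mm10 as the build and list Bowtie2, SAMtools, deepTools and MACS2 as tools. How the consensus was made, from which genotypes, and with which thresholds or excluded regions is not given in the sources used here.

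Starts were raised by 1 base. Genes of GRCm38.p6, which shares mm10 coordinates on the chromosomes used, came from the RefSeq table, and strands, starts and sequences from the RefSeq promoter table, all of whose 32851 rows matched a gene by gene ID. Of these, 31365 windows on the chromosomes used entered. Exons, introns and UTRs were not used here. Where windows overlapped, 3467 of 3467 pairs had matching bases.

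Gaps, clusters and shares were computed in Python 3.11.15 with pandas 2.3.3, NumPy 2.4.6 and SciPy 1.17.1, and the functions were tested on simulated data. Intervals are exact (Clopper-Pearson) at 95% over regions, genes or windows and cover counting only. A gene counted as holding a region when they shared 1 base or more. CpG ratios are the CpG count times the window length over the product of the C and G counts.

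The regions, the comparison classes and the gene lists (lineage regulators, naive and formative pluripotency, imprinted genes, extraembryonic markers, Polycomb subunits, H3.3 genes and chaperones, synaptic adhesion and ion channel genes, zinc finger, olfactory receptor, vomeronasal, protocadherin, and keratin and defensin genes) were chosen with earlier results of these data known. Named are the 10 widest regions, the 10 farthest from a gene end and the 10 farthest from H3K27ac, genes that hold 3 or more regions, the 5 clusters with most regions, up to 4 widest regions of each list and the 3 regions on each side of every threshold; a few regions that these rules name are not reported here. Other regions that are named, the 8 printed windows and the 44 isolated regions included, were picked after their values were seen. Alternatives changed the gene-end window, the genes used, the width limit and the distance to H3K27ac.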

Additional observations from a re-analysis of the deposited data

Results flagged for a closer look

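Chromosomes X and Y were left out by the rule. On chromosome X, 16 of 47 H3.3 regions, 34.0% (exact 95% interval 20.9 to 49.3), met every other criterion. They are values outside the regions described, and the share on chromosomes 1 to 19 was 16.0%; the difference was not tested. Of these, 9 lay inside Bcor, which encodes a subunit of a Polycomb complex of the PRC1 class, out of 13 H3.3 regions with their centre in that gene. They were 201 to 922 bp wide and 119673 to 195454 bp from H3K27ac. No autosomal gene held more than 4 regions that met the rule. On chromosome Y, 3 of 6 H3.3 regions met the other criteria.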

How the results depend on the processing

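The 5 summary values (number of regions, median width, and the shares inside a gene, within 5 kb of H3K27ac and within 10 kb of another H3.3 region) were recomputed 31 times under planned settings and 10 times under settings chosen after seeing the data. In 24 and 7 of these recalculations they stayed within their intervals (the number within 1.5 times 861). Widening the gene-end window to 2.5 kb left 518 regions, 70.1% inside a gene and 48.8% within 10 kb of another H3.3 region. The median width was 330 bp below a limit of 1000 bp and 430 bp without a limit, where 57.1% had an H3.3 neighbour within 10 kb. Requiring no H3K27ac within 1 kb lowered the share within 5 kb of it from 20.6% to 12.0%, which that requirement brings about by construction. Of the settings added, joining H3.3 regions at gaps up to 1 kb gave 41.3% with a neighbour within 10 kb, and requiring no listed start within 1 kb, with chromosome 18 left out as well, gave 56.5%, with 70.4% inside a gene. The lower number with the wider gene-end window and the shifts in median width with the width limit also have their direction fixed by construction. Joining removes every H3.3 neighbour within 1 kb, and its part in the lower share was not measured apart. The causes of the other shifts were not tested. Sequence composition of the regions themselves and distance to chromosome ends were planned and not run, since no genome sequence was used here. Depth is unknown, positions carry no error, and presence in a given genotype cannot be read from the lists.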
